A study of Medicago truncatula with 48 samples.

Results

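The last step of maturation of the Medicago truncatula endosperm at standard temperature was described by setting the 2 endosperm libraries of stage S4, taken at 44 days after pollination (dap), against the 2 libraries of stage S3, taken at 36 dap. These 4 libraries were chosen by their sample names and are 4 of the 48 RNA-seq libraries of the study, which cover embryo, endosperm and seed coat in 20 groups of tissue, stage and temperature. All plants were of the A17 line, and the standard plants were kept at 20 °C by day, whereas the heat-stressed plants were moved to 26 °C by day at flowering (after it in the labels), where S3 and S4 were reached at 22 and 28 dap. The sources disagree on the night temperatures, which are therefore not given. Earlier endosperm was taken at 17 dap (S1) and 26 dap (S2), and each endosperm group had 2 replicates and each embryo group 3. According to the methods, each sample was a pool of tissues dissected from at least 50 seeds. No label says that the replicates came from separate plants, so that the p-values measure the spread between these pools, which may be technical.

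The endosperm is a product of double fertilization that feeds the young embryo. In Medicago, as in many legumes, most of it is used up during seed filling, and a thin layer of living cells around the embryo remains in the mature seed, where it acts as a barrier to germination. S3 marks the end of seed filling and the onset of longevity, the ability of the dry seed to stay alive in storage, and S4 is the mature seed. The assay counted mRNA fragments, and in such bulk samples fewer cells of a type and less RNA per cell cannot be told apart. Values are counts scaled to the usual fixed library total (CPM), either on the library total or, where called normalized, after scaling by TMM, edgeR's method, which assumes that the bulk of transcripts stay the same. None of the 44473 transcript identifiers matched the gene table used, so no gene names or roles were assigned, and 4 transcripts are named by identifier.

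The S3 libraries held 18390673 and 18129501 estimated counts and the S4 libraries 18649177 and 18600000. At least 1 estimated count was found for 29516 and 29222 transcripts at S3 and for 28642 and 28799 at S4. The 10 most abundant transcripts took 14.96% and 16.04% of all counts at S3 and 16.4% and 15.9% at S4. The label was checked with 442 transcripts enriched in endosperm, chosen from heat-stressed libraries alone. Together they took 16.8% and 18.2% of the counts at S3 and 18.7% and 18.5% at S4, whereas in the standard-temperature libraries they took between 0.151% and 0.478% in embryo and between 0.265% and 0.616% in seed coat. The S3 replicates differed more than the S4 replicates: the median SD of a transcript was 0.143 at S3 and 0.083 at S4 on the normalized log2 CPM scale, and 2399 transcripts at S3 and 1384 at S4 were at least 2-fold apart. The first S3 library also held more of 518 tested seed-coat-enriched transcripts (0.218% of its counts, against 0.108% in the second S3 library and 0.133% and 0.131% at S4) and of 18 embryo-enriched transcripts (0.324%, against 0.0918%, 0.176% and 0.170%). With 2 libraries against 2, an exact two-sided permutation test of such a share cannot give a p below 0.333.

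Between S3 and S4, 8476 of 26400 transcripts tested were called (32.1%) by edgeR's quasi-likelihood test at a Benjamini-Hochberg adjusted p below 0.01. Of these, 4115 rose (15.6%) and 4361 fell (16.5%), so that 48.5% of the calls were increases. With scaling by library size alone, under which the log2 fold changes over all transcripts had a median of -0.13 instead of -0.02, 8588 were called and 37.8% of them were higher. Most changes were modest. The transcripts that rose had a median log2 fold change of 0.79 (quartiles 0.51 and 1.39) and 61.2% of them changed by less than 2-fold, whereas those that fell had a median of -0.96 (quartiles -1.80 and -0.58) with 52.1% under 2-fold. A change of at least 2-fold was called for 3686 transcripts, 1597 higher and 2089 lower. Leaving out 1 of the 4 libraries gave 5623 to 7433 calls, the fewest without the first S4 library.

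**Figure D1:**
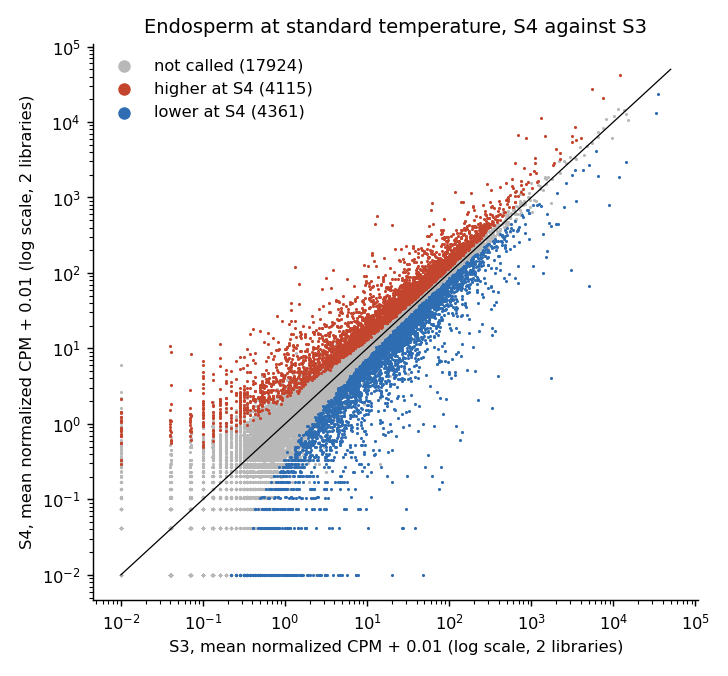
Mean normalized CPM of each tested transcript at S4 (vertical axis) against S3 (horizontal axis) in standard-temperature endosperm, both on log scales with 0.01 CPM added, 2 libraries per mean. The 4115 transcripts called higher lie above the line of equal values and the 4361 called lower lie below it, and the points farthest from the line are mostly among those that fell.

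More falls than rises had an estimated size of at least 16-fold. Such a fall was called for 310 transcripts and such a rise for 108. The 310 had median levels of 10.2, 11.4, 1.62 and 0.027 CPM at S1, S2, S3 and S4, so that their median had already dropped between S2 and S3. The 108 had medians of 0.108, 0.056, 0.082 and 2.85 CPM, near the limit of detection until S4. The S4 median of the 310 was near that limit as well. The estimated folds of both sets therefore depend on the prior count, and their size is uncertain. Since these transcripts were picked by their change, the S3 and S4 medians only describe them. Among transcripts missing from one stage, 64 had at least 10 counts in both S3 libraries and none in either S4 library, of which 59 were called. Against a floor of 3 counts per library, these were at least 7.75-fold lower at the median and at least 266-fold lower at the most. The reverse, no count in both S3 libraries and at least 10 in both S4 libraries, was found for 19 transcripts. Of these 15 were called, with a median of at least 5.67-fold higher over the 19. The 64 and the 19 were picked by the same counts as the calls, so that the numbers called only describe them.

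The make-up of the mRNA pool shifted. The 4115 transcripts that rose took 24.1% and 22.2% of all counts in the S3 libraries and 43.7% in each S4 library. The 4361 that fell took 30.7% and 33.9% at S3 and 14.3% in each S4 library. The 17924 transcripts not called took 45.1% and 43.9% at S3 and 41.9% and 42.0% at S4. These shares describe the same libraries that made the calls. In the earlier endosperm libraries, which took no part in the contrast, the set that rose held 18.5% and 19.0% of the counts at S1 and 15.8% and 15.9% at S2, and the set that fell held 39.9% and 38.8% at S1 and 44.6% and 44.4% at S2.

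Set among all 4 stages, S4 was the highest in mean normalized level for 3677 of the 4115 transcripts that rose (89.4%). The highest stage was S1 for 410 of them and S2 for 28. Of the 4361 that fell, the lowest stage was S4 for 3454 (79.2%), S1 for 845 and S2 for 62, with ties given to the earlier stage. Both sets were chosen by S4 against S3, which favours S4 and leaves S3 no place in these shares. The same shares over all transcripts were not computed. The median level of the transcripts that rose was 9.91, 11.6, 20.8 and 36.7 normalized CPM over S1 to S4. The corresponding medians of those that fell were 21.4, 24.1, 18.4 and 9.17 normalized CPM. The step from S1 to S2 shares no library with the one from S3 to S4. Of the transcripts that rose, 30.3% had also risen between S1 and S2 and 21.5% had fallen, beside 24.3% and 24.6% of all transcripts. Of those that fell, 25.7% had fallen in the earlier step and 36.0% had risen.

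The last step had fewer calls than the earlier 2 at standard temperature. S1 to S2 gave 12894 calls (48.8% of transcripts), 6407 of them higher, and 57.9% of its calls reached 2-fold. S2 to S3, which shares the S3 libraries with the last step, gave 9175 calls (34.8%), 4949 of them higher, and 50.2% reached 2-fold. At S3 to S4, 43.5% of the calls did. The higher share of the S2 to S3 calls was 22.9% when libraries were scaled by their size alone, and that of the S1 to S2 calls was 39.7%. Without the first S3 library the order of the last 2 steps turned, with 7151 calls for S2 to S3 and 7433 for S3 to S4. Whether the numbers of calls differ between steps was not tested.

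**Figure D2:**
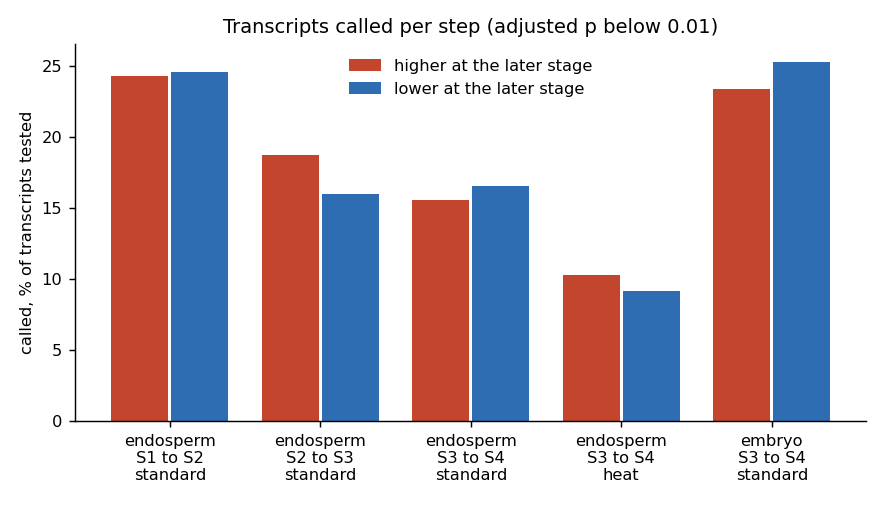
Percent of tested transcripts called higher or lower at the later stage (vertical axis) in each of 5 steps, at an adjusted p below 0.01 in edgeR. S3 to S4 in standard-temperature endosperm (15.6% higher, 16.5% lower) has a smaller higher share than the 2 earlier endosperm steps and the embryo step, a lower share close to that of S2 to S3 (16.0%), and larger shares than the same endosperm step under heat.

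The 4 transcripts with the smallest p-values (2 that rose, 2 that fell) among those of at least 2-fold change and 10 CPM are given in full. MtrunA17_Chr7g0257731, on chromosome 7 and 2399 bases long, stood at 62.9 and 61.6 normalized CPM in the S3 libraries and at 847 and 825 at S4. Both S4 libraries lay far above both S3 libraries, and the rise was 13.4-fold (log2 fold change 3.75, SE 0.09, edgeR adjusted p = 3.26e-11). It had been at 15.5 and 15.3 normalized CPM at S1 and at 27.4 and 29.9 at S2. Under heat it went from 164 and 179 to 1759 and 1614 (log2 fold change 3.30), and the difference between the temperatures did not pass the test (0.45, edgeR adjusted p = 0.0336). In embryo its log2 fold change was 4.35, and the difference from endosperm did not pass either (-0.53, edgeR adjusted p = 0.0200).

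MtrunA17_Chr7g0257741, the neighbouring identifier on chromosome 7 with 701 bases, followed almost the same course. Its normalized CPM was 11.4 in each S3 library and 179 and 172 at S4, a 15.4-fold rise (log2 fold change 3.94, SE 0.11, edgeR adjusted p = 1.66e-10). It had been at 2.35 and 1.90 at S1 and at 4.29 and 4.97 at S2. Per length the pair was alike, with means of 17.6 and 15.3 on the length-corrected TPM scale at S3 and of 145 each at S4. Both were more abundant in embryo at S4, at 621 to 774 TPM for the longer and 693 to 862 TPM for the shorter transcript. Under heat, the embryo-enriched list was chosen to be at least 20 times as high in embryo as in endosperm. At S4 its mean share in endosperm was 2.92% of that in embryo, a low value that this choice favours. The part of RNA carried over from embryo was not tested. Whether reads are shared between the pair was not tested.

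MtrunA17_Chr1g0146251, on chromosome 1 and 2278 bases long, nearly vanished. It stood at 884 and 719 normalized CPM at S1, at 855 and 883 at S2, at 92.5 and 67.4 at S3 and at 0.193 and 0.318 at S4. The fall from S3 was 305-fold (log2 fold change -8.25, SE 0.32, edgeR adjusted p = 6.18e-09), after a fall between S2 and S3. The S4 libraries held only 3 and 5 counts of it, so that the size of this fold is uncertain. Leaving out 1 of the 4 libraries gave log2 fold changes between -8.65 and -7.95. Under heat the transcript began from a like level, 67.9 and 69.6 at S3, and was still at 18.5 and 27.4 at S4 (log2 fold change -1.58). This difference between the temperatures was -6.67 on the log2 scale (SE 0.42, edgeR adjusted p = 4.59e-06), and its size rests on the same 3 and 5 counts. In embryo the transcript did not exceed 0.76 TPM in any library.

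MtrunA17_Chr5g0419251, on chromosome 5 and 2468 bases long, reached its highest level at S2, at 102 and 108 normalized CPM, after 46.7 and 42.5 at S1. It was at 18.5 and 17.8 at S3 and at 2.50 and 2.42 at S4, a 7.37-fold fall (log2 fold change -2.88, SE 0.11, edgeR adjusted p = 6.18e-09). Under heat the fall was smaller (log2 fold change -1.24), with a difference of -1.64 (SE 0.17, edgeR adjusted p = 0.000241). In embryo the change did not pass the test (-0.37, edgeR adjusted p = 0.481). Of the pair that fell, both thus fell further at standard temperature than under heat. The pair that rose also changed more at standard temperature, by 0.45 and 0.69 on the log2 scale. Neither of these 2 differences passed the test (edgeR adjusted p = 0.0336 and 0.0152). All 4 transcripts were picked by their change at standard temperature, which is part of this test, so that a larger change there is favoured.

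**Figure D3:**
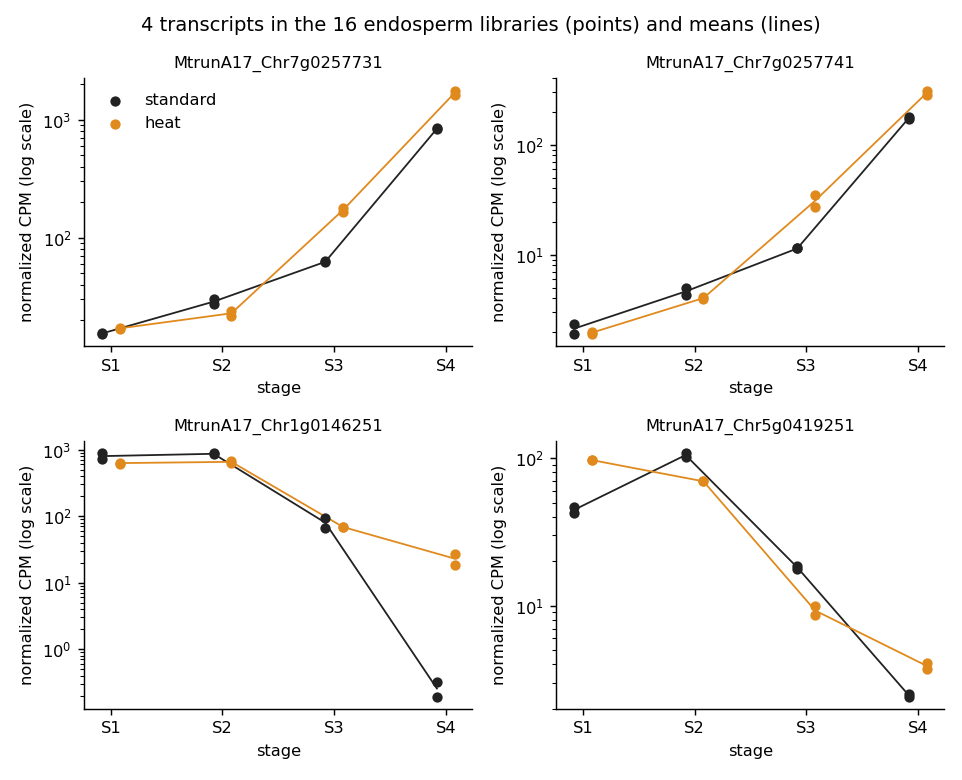
Normalized CPM on a log scale (vertical axis) of the 4 named transcripts over stages S1 to S4 (horizontal axis) in the 16 endosperm libraries, with points for libraries, lines for group means, black for standard temperature and orange for heat. At standard temperature the chromosome 7 pair rises to its highest level at S4, and the transcript of chromosome 1 drops to 0.193 and 0.318 CPM at S4 while it stays at 18.5 and 27.4 under heat.

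Most members of the endosperm-enriched list fell. The list was chosen by the mean over the 8 heat endosperm libraries of S1 to S4, so that members high only at early stages could pass. Of the 442 members of the list, all of which were tested, 266 fell (60.2%, beside 16.5% of all transcripts) and 64 rose (14.5%, beside 15.6%), and the median log2 fold change was -0.90. In 4 groups of the list ordered by the same mean under heat, 58 of 111, 59 of 110, 65 of 110 and 84 of 111 fell. The medians were -0.62, -0.66, -0.80 and -2.38 from the least to the most abundant. Under heat the 266 took 16.0% and 15.6% of the counts at S1, against 2.31% and 4.51% at S4. The choice thus favours falls, and these shares and medians only describe the list. Among the 10 most abundant members 4 rose and 3 fell, with a median of 0.32. In each S4 library 34 members had no count, whereas 4 and 0 had none in the S3 libraries. Leaving out 1 of the 4 libraries kept the median of the list between -0.94 and -0.83.

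The summed share of the list did not fall, since the members that rose gained a larger share than the others lost. The 266 that fell took 8.47% and 10.1% of all counts at S3 and 2.84% and 2.85% at S4, after 14.9% and 14.7% at S2. The 64 that rose went from 3.61% and 3.37% at S3 to 11.3% and 11.0% at S4, and had taken only 0.199% in each S2 library and 0.1399% and 0.1438% at S1. The 112 not called held 4.68% and 4.76% at S3 and 4.65% and 4.64% at S4. The set that rose and the set that fell were picked by this contrast, so that their S3 and S4 shares describe them, while their S1 and S2 shares come from other libraries. In the heat libraries the same 64 took 5.08% and 4.68% at S3 and 13.3% and 9.13% at S4, and the same 266 took 7.59% and 7.54% at S3 and 2.31% and 4.51% at S4. The S4 values under heat differ between replicates by more than those at standard temperature.

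**Figure D4:**
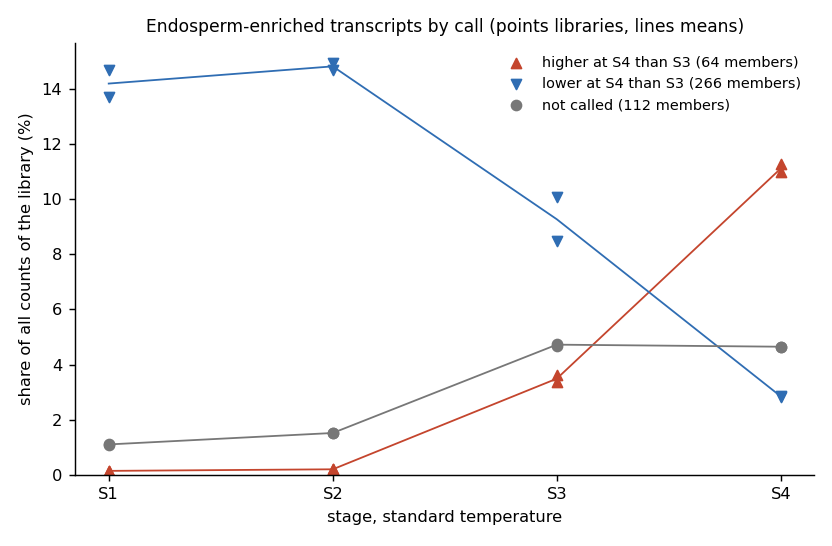
Share of all counts (vertical axis, percent) taken by the 442 endosperm-enriched transcripts, split by their call between S3 and S4, over stages S1 to S4 at standard temperature (horizontal axis), with points for the 8 libraries and lines for means. The 266 members that fell drop from 14.9% and 14.7% at S2 to 2.84% and 2.85% at S4, and the 64 that rose go from 0.199% to 11.3% and 11.0%.

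The 50 transcripts most abundant in heat-stressed endosperm at S3 and S4 were split in the same way. Of these, 17 rose, 11 fell and 22 were not called. In the most abundant of 5 equal groups of all transcripts, 33.9% rose and 19.2% fell, beside 34% and 22% here. The list had a median log2 fold change of 0.19, which was 0.08 with scaling by library size and 0.0050 without the second S3 library. The 17 took 5.198% and 4.686% of the counts at S3 and 14.3% and 14.0% at S4, and the 11 took 11.1% and 12.9% at S3 and 4.71% and 4.62% at S4. Of the 50, 16 also belonged to the endosperm-enriched list. The pool of abundant transcripts as a whole took 29.5% and 29.8% at S3 and 31.1% and 30.4% at S4.

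The lists of the neighbouring tissues were read with the doubt on the first S3 library. Of the 18 embryo-enriched transcripts 10 rose and 2 fell, 66.7% in all beside 32.1% of all transcripts (median log2 fold change 1.43). The 10 were scarce, with a summed share of 0.0047% and 0.0028% of the counts at S3 and 0.0229% and 0.0250% at S4, whereas the 6 members not called made up most of the list's share, at 0.318% and 0.0866% at S3 and 0.152% and 0.144% at S4. Without the first S3 library the median was 2.56, and without the second it was 0.88. Of the 518 seed-coat-enriched transcripts tested 27 rose and 69 fell, so that 18.5% were called, beside 32.1% of all transcripts, with a median of -0.87. This median rested on the first S3 library: 416 of the 518 were higher in it than in the second, and without it the median was -0.12. The part of the other tissues' RNA in these values was not tested. Among all transcripts that rose, 70 (1.701%) were more than 10 times as abundant in embryo at S4 as in endosperm at S4, beside 3.65% of those not called. Of the 108 that rose at least 16-fold, 17 (15.7%) were, as were 51 of the 310 (16.5%) that fell at least 16-fold. The 310 were picked by their fall, to a median of 0.027 CPM in endosperm at S4, so that a trace in embryo suffices. Their share therefore only describes them. Among all transcripts that fell the share was 1.86%.

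Transcripts of the plastid and mitochondrial genomes were few, and the libraries had been enriched for mRNA. Of 81 plastid transcripts tested 11 rose and 1 fell (14.8% called, beside 32.1% of all transcripts), with a median log2 fold change of 0.34. They took 0.0383% and 0.0379% of the counts at S3 and 0.0432% and 0.0557% at S4. Of 31 mitochondrial transcripts tested 5 were called (16.1%), each of them lower at S4, which is near the 16.5% of all transcripts that fell, and the median was -0.97. Their summed counts were 1275 and 2051 at S3 and 600 and 629 at S4, so that both S4 libraries lay below both S3 libraries (exact two-sided permutation test on the shares, p = 0.333, the smallest that 2 against 2 libraries allow).

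Calls were spread over the 8 chromosomes, from 27.4% of the transcripts tested on chromosome 6 to 33.6% on chromosome 2. Longer transcripts were called more often. In 5 equal groups by length, the share that rose went from 8.47% of the shortest (123 to 932 bases) over 12.3%, 14.8% and 18.4% to 23.9% of the longest (2593 to 27277 bases). The share that fell was 12.03%, 16.4%, 18.4%, 18.9% and 16.9%. The share called also went up with abundance, from 8.43% of the least to 53.1% of the most abundant group, and the part of the counts behind a transcript in the trend with length was not tested. In identifier order, 18184 pairs of directly adjacent identifiers were both tested. The second of a pair rose after 23.2% of those that rose, beside 15.4% of all these pairs. It fell after 24.4% of those that fell, beside 17.0%. Near-identical neighbours can share reads in the estimated counts, and their part in these values was not tested.

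The same step under heat was measured in 4 libraries that took no part in the contrast at standard temperature. It gave 5115 calls (19.4%), 2706 higher and 2409 lower. Of the 4115 transcripts that rose at standard temperature, 2055 also rose under heat (49.9%, beside 10.2% of all transcripts), 26 fell, and 90.7% had the same sign. Of the 4361 that fell, 1845 also fell under heat (42.3%, beside 9.12% of all), 8 rose, and 94.1% had the same sign. The shared transcripts made up 75.9% of the increases and 76.6% of the decreases under heat. The median log2 fold changes under heat were 0.47 for the set that rose and -0.56 for the set that fell, beside the 0.79 and -0.96 that chose them. The 2 heat S4 libraries stood apart from each other, with 2521 transcripts at least 2-fold apart, and without one or the other 2845 and 6005 transcripts were called under heat.

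The step could also be read from the heat libraries towards the standard ones. The 813 transcripts that rose and the 1056 that fell by at least 2-fold under heat were taken, and their medians were compared in each library at standard temperature. The median of the rising set minus that of the falling set was -3.01 and -2.64 at S1, -2.99 and -3.00 at S2, -0.86 and -1.02 at S3, and 2.78 and 2.74 at S4, in normalized log2 CPM. Standard-temperature S4 libraries thus lay on the far side of 0 from all 6 earlier ones. In the heat libraries that chose the sets, the values were -0.73 and -0.81 at S3, and 3.10 and 1.99 at S4.

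The change between S3 and S4 differed between the temperatures for 553 transcripts (2.09%) in the test of the interaction itself. For 332 of them the change was more positive at standard temperature, with a median log2 fold change of 1.28 there and -0.06 under heat, and 292 of the 332 were called higher at standard temperature. For 221 it was more negative, with medians of -1.96 and -0.32, and 185 of them were called lower at standard temperature. Opposite calls at both temperatures were found for 26 of the 332 and 8 of the 221. The endosperm-enriched list held 74 of the 553 (16.7% of its members), 70 of them more negative at standard temperature. That list was chosen by a high level in heat endosperm, the S3 and S4 libraries of this test included. Its share and direction here therefore only describe it. The number of such differences depended strongly on single libraries: it was 1957 without the first heat S4 library, 913 without the first standard S3 library, 157 and 149 without the first and second heat S3 libraries, and 157 and 117 without the first and second standard S4 libraries. With scaling by library size 45.3% of the differences were more positive, beside 60.0% with TMM.

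**Figure D5:**
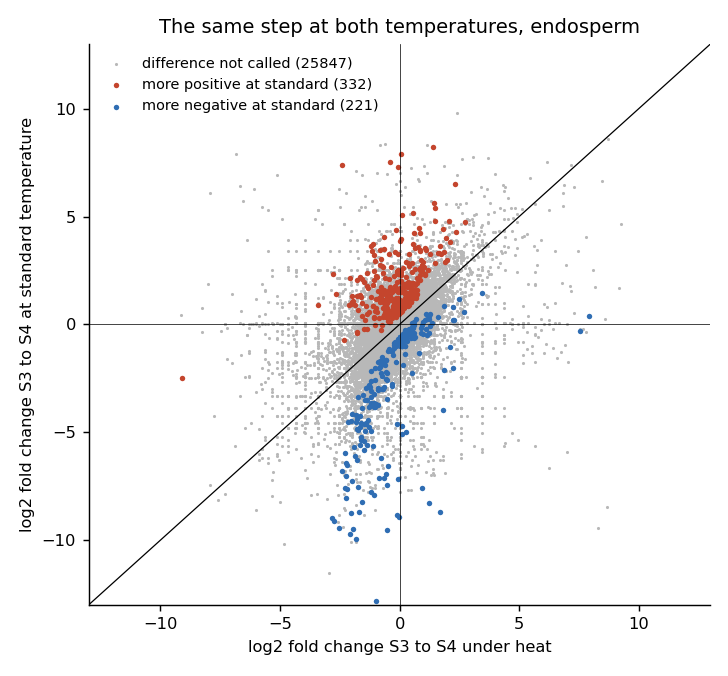
Log2 fold change from S3 to S4 at standard temperature (vertical axis) against that under heat (horizontal axis) for each tested transcript, with the line of equal changes. The 332 transcripts with a more positive and the 221 with a more negative change at standard temperature, by the edgeR interaction test, are coloured, and their median changes under heat are -0.06 and -0.32.

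The embryo went through the same step in 6 libraries of its own, with 10702 of 21992 transcripts called (48.7%), 5142 higher and 5560 lower. Among the 20810 transcripts tested in both tissues, 3774 rose in endosperm, of which 2187 rose in embryo (57.9%, beside 24.3% of all) and 315 fell. Of the 3833 that fell in endosperm, 2063 fell in embryo (53.8%, beside 25.8% of all) and 226 rose. The sign was the same for 75.2% and 79.9%. These shares were 43.3% of the embryo increases and 38.4% of the embryo decreases.

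The change differed between endosperm and embryo for 5037 of 27952 transcripts (18.0%) in 1 fit of both tissues. For 3012 the endosperm change was more positive, with medians of 0.25 in endosperm and -1.31 in embryo. For 2025 it was more negative, with medians of -0.09 and 0.98. Since the 3012 and the 2025 were picked by this difference, their medians, taken from the separate fit of each tissue, only describe them. Calls in opposite directions were found for 314 of the 3012 and 224 of the 2025. The direction of these differences depended on the scaling: 59.8% were more positive in endosperm with TMM, 28.6% with library size alone, and 47.4% with no filter on low counts. The median difference of all transcripts was 0.15 with TMM and 0 with library size alone. Without the second embryo S3 library 8114 differences were called, and without the second endosperm S4 library 3149.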

How the data were processed

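According to the methods, the authors trimmed the single-end reads, quantified them on the A17 reference transcriptome with Salmon, and deposited 1 column of estimated counts per library, neither normalized nor pooled. Salmon divides reads that match several transcripts, so that counts of near-identical copies are uncertain, and a strand setting is not given in the sources used here. Of the nonzero values 29.7% were not whole, and all were rounded for the tests. All 48 sample columns were used and 0 were left aside. Totals and shares came from the deposited values, and TPM from these and the effective lengths in the same table.

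Testing used edgeR 4.0.16 (limma 3.58.1, R 4.3.3): filterByExpr (minimum count 10, minimum total 15), TMM, glmQLFit on all 16 endosperm libraries with 1 mean per stage and temperature, and Benjamini-Hochberg adjusted p below 0.01 without a minimum fold change, as in the study. The embryo fit held 24 libraries and the fit of both tissues 40. Fold changes of scarce transcripts depend on the prior count. Standard errors are on the log2 scale. The alternatives were RLE or library-size scaling, a filter dropped or raised to 10 counts in all libraries, DESeq2 1.42.0, a replicate block and other thresholds. Smaller fits, removal of the 50 abundant transcripts, and leaving out single S3 and S4 libraries were also run.

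Lists were made from heat libraries on CPM with 0.1 added: embryo-enriched (at least 50 CPM in embryo at S3 and S4, at least 20 times endosperm), seed-coat-enriched (at least 20 CPM, at least 20 times endosperm and embryo at S1 and S2) and endosperm-enriched (at least 20 CPM, at least 10 times embryo and 5 times seed coat). For the endosperm-enriched list, levels were means over the S1 to S4 heat libraries of endosperm and embryo, and the S1 and S2 ones of seed coat. The members and lists were chosen with earlier results of these data known. Because no identifier matched, the 2 transcripts that rose and the 2 that fell with the smallest p, at least 2-fold change and a mean of at least 10 CPM in the higher group were named, out of 864 and 850 that met these limits.

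Same-numbered replicates showed no shared deviation from their group means, and no label pairs them. In a test on simulated counts of the S3 to S4 contrast with 200 changed transcripts among 26004 tested, 47.5% of the 2-fold and 64.6% of the 4-fold changes were recovered with 1 false call. For the interaction 28.7% and 56.6% were recovered, so that a change not called is not shown to be absent. In the data 8476 transcripts were called for S3 to S4, so that the adjusted threshold was less strict there than with 200 changes. These rates are therefore not the sensitivity of the real tests. Totals of 17864494 to 18649177 counts per endosperm library limit the precision for scarce transcripts, and since the reads carry no molecular identifiers, PCR copies count as well and floors cover counting error only. Gene ontology was not analysed here.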

Additional observations from a re-analysis of the deposited data

Results flagged for a closer look

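The following 2 results stood out because the change from S3 to S4 differed between groups in a test of the difference itself. The change in endosperm differed between standard temperature and heat for 553 of 26400 transcripts tested. The change at standard temperature differed between endosperm and embryo for 5037 of 27952. Both numbers depend on single libraries, as given beside them, and the heat S4 replicates had 2521 transcripts at least 2-fold apart. Dixon's rule could not be applied, since the groups held 2 or 3 libraries.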

How the results depend on the processing

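The S3 to S4 call count of 8476 was 8468 with RLE scaling, 7587 with DESeq2, 8324 with no filter, 7219 with at least 10 counts in every library, 5809 in a fit of the 4 libraries alone, 11645 at an adjusted p below 0.05, and 8354 with the replicate number as a block. Counts past 1.5 times the main one were found as follows. Changes of at least 2-fold fell from 3686 to 2116 when at least 10 counts were required in every library, which tests fewer transcripts. The 553 differences between temperatures became 836 with no filter, 923 with DESeq2 and 1928 at an adjusted p below 0.05, at which the heat step gave 8342 calls in place of 5115. The cause was not tested, beyond the looser threshold itself. A fit that left out a library kept 1 sample in a group, assumed to vary like the other groups. Only S3 and S4 libraries were left out, so that the range for S2 to S3 does not cover its S2 libraries. Over these fits the ranges were 5623 to 7433 for the S3 to S4 calls, 2912 to 3707 for those of at least 2-fold, 117 to 1957 for the differences between temperatures, 2416 to 6005 for the heat step, 7151 to 8662 for S2 to S3, 8897 to 12412 for the embryo step and 3149 to 8114 for the differences between tissues. The 4 named transcripts kept their direction and call in each alternative computed for them, except that MtrunA17_Chr1g0146251, with few counts at S4, was not tested where at least 10 counts were required in every library.

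Deviations from group means correlated between same-numbered replicates of S3 and S4 with 0.002, and between -0.039 and 0.037 over all pairs of endosperm groups. Same-numbered replicates thus showed no shared deviation, which cannot exclude shared plants or batches. With the replicate block the counts were 8354 for S3 to S4, 555 for the difference between temperatures, 4990 for the heat step and 4996 for the difference between tissues. The changes of scarce transcripts are limited by depth, as 8.43% of the least abundant group were called.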
